A study of Drosophila melanogaster with 25 samples.

Results

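The dpr, DIP, beat and side genes of Drosophila melanogaster encode immunoglobulin-type cell surface and secreted proteins through which neurons and their partners recognise each other. They were followed here across larval imaginal discs, the epithelia that give rise to the adult eyes and appendages. The members were all genes whose symbol is dpr with a number, or begins with DIP- or beat-, or is side or begins with side-, and that had a probe set naming no other gene. This gave 51 of the 11982 genes with such a probe set, made up of 20 dpr, 10 DIP, 13 beat and 8 side genes with 93 probe sets. Each gene was represented by its probe set with the highest mean over all 25 arrays.

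Dpr proteins, named after a proboscis extension response mutant, bind DIPs (Dpr-interacting proteins) across the gap between neighbouring cells in a selective code, and such pairs guide the matching of synaptic partners in the nervous system. DIP-alpha binds Dpr6 and Dpr10, DIP-gamma binds Dpr11 and also Dpr15, Dpr16 and Dpr17, and DIP-delta binds Dpr12. Beat-Ia (Beaten path) is needed for motor axons to leave their bundles, and its partner Side (Sidestep) marks the muscle surface that these axons seek, while the other Beat and Side proteins are relatives of this founding pair. In the developing visual system, photoreceptors and their targets are known to carry members of both networks.

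The study compared RNA of discs at the third larval instar, with 1 Affymetrix Drosophila Genome 2.0 array per sample. The groups were eye discs of wild-type larvae (4 arrays), antennal discs titled Uey and wild-type antennal discs, leg discs of ato-mutant larvae carrying UAS-ey, UAS-ey leg discs and wild-type leg discs, and UAS-ey and wild-type wing discs (3 arrays each). Eyeless (ey), the subject of the series title, is the Pax6-type factor that starts eye development. The proneural gene atonal (ato) founds the photoreceptors. UAS-ey is an ey transgene that a GAL4 driver switches on. The sources used here name neither that driver nor the allele of ato, and do not spell out Uey, which was read as the antennal counterpart of UAS-ey. The samples are called biological triplicates, though the eye group has 4, without saying from which larvae they came, so p-values measure the spread between these samples. In whole discs, fewer cells of a type and less RNA per cell cannot be told apart.

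The deposited log2 signals end at a floor of 6.91, on which 25.2% to 33.7% of the probe sets of each array lay, and their precision is limited by how few arrays a group has. The ey probe set checked no label, since it read 10.36 to 11.02 on UAS-ey leg arrays, against 11.68 to 12.34 on wild-type leg arrays. The target eya, a retinal determination gene, was at 12.04 to 12.09 on UAS-ey leg arrays, 10.06 to 11.70 on ato-mutant UAS-ey leg arrays and 7.98 to 8.26 on wild-type leg arrays. The ato signal was 7.85 to 10.16 on ato-mutant leg arrays, 10.47 to 10.60 on UAS-ey leg arrays and 8.97 to 9.12 on wild-type leg arrays, so the uneven ato-mutant group lay on both sides of wild type and ato does not check its label. Eye replicate 4 stood apart by its fat body markers, which summed to 9703 there, against 443 to 507 on the other 3 eye arrays. Of the disc identity genes, Antp, a Hox gene of the thorax, was at the floor on every antennal and eye array and at least 11.11 on every leg and wing array. The wing gene vg was at 12.26 to 12.47 on wing arrays. It was at 8.10 to 10.35 on ato-mutant, 6.91 to 8.07 on UAS-ey and 8.47 to 8.87 on wild-type leg arrays. Dfd, a Hox gene of the head, was at 6.92 to 7.29 on ato-mutant leg arrays and at the floor on all other leg and wing arrays. A control probe set for the Bacillus gene phe, which measures no fly gene, split the arrays: it read 7.89 to 9.50 on the 13 eye, antennal and UAS-ey leg arrays and 9.77 to 11.15 on the 12 ato-mutant leg, wild-type leg and wing arrays. The ey probe set followed the same split, at 10.26 to 11.25 on those 13 arrays and 11.52 to 12.60 on the other 12. Comparisons of eye or antennal with leg or wing discs, and of UAS-ey leg discs with the other leg discs, cross that split.

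Of the 51 genes, 14 were at the floor on all 25 arrays, 15 were above it on some arrays and 22 on every array. Among all 18769 probe sets, 17.3% were at the floor on every array, against 32.3% of the members' probe sets (30 of 93). The founding pair side and beat-Ia, and dpr1, the gene behind the dpr name, were at 6.91 on every array of all 8 groups. The other genes at the floor throughout were dpr10, dpr11, dpr15, DIP-iota, DIP-kappa, DIP-zeta, beat-Ic, beat-IIb, beat-IIIb, beat-IV and beat-Va. A gene at the floor has only an upper bound here.

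By family, 16 of 20 dpr genes rose above the floor on some array, as did 7 of 10 DIP, 7 of 13 beat and 7 of 8 side genes. The group means of 11 genes spread over more than 1 on the log2 scale: 8 dpr genes (dpr7, dpr12, dpr14, dpr16, dpr17, dpr18, dpr19 and dpr20), DIP-alpha, DIP-gamma and beat-IIIc. For 21 of the 37 genes above the floor the group means spread over less than 0.5, among them all 7 side genes on the probe sets used.

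**Figure D1:**
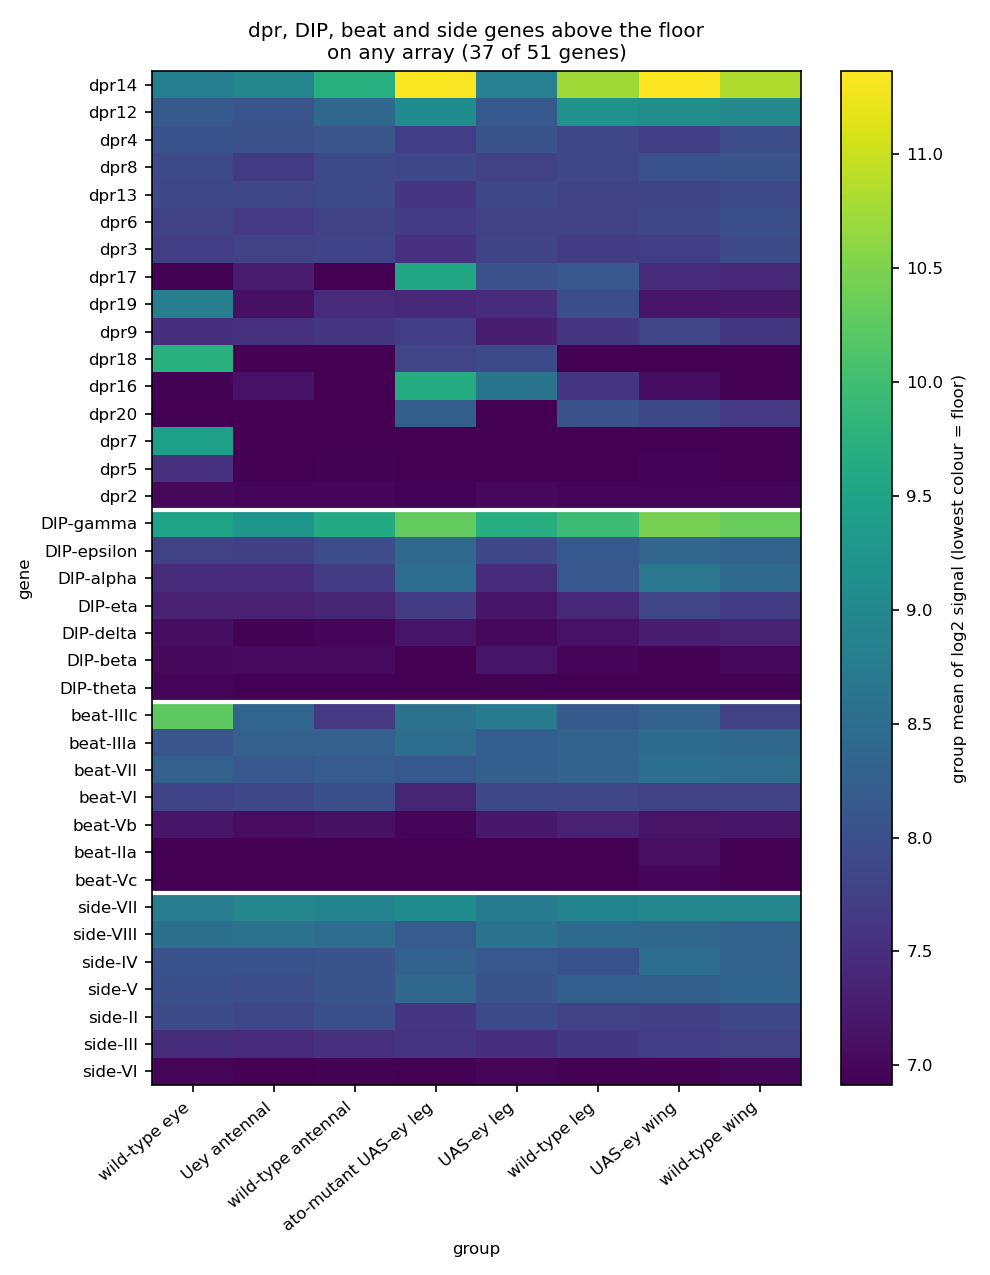
Group means of the log2 signal (colour, lowest colour at the floor of 6.91) of the 37 genes above the floor on any array, one row per gene ordered by family and mean signal, one column per group. The dpr7, dpr18 and beat-IIIc rows are brightest in the eye disc, the dpr16 and dpr17 rows are brightest in ato-mutant UAS-ey leg discs, while the side rows, 1 probe set each, vary little.

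In the eye disc 5 members were called higher than in each of the other wild-type discs. Against wild-type antennal discs, 5 of 51 members (9.8%) were called at an adjusted p under 0.05 (limma), near the 10.6% of all probe sets. All 5 were higher in the eye disc, while of all probe sets 5.43% were higher and 5.18% lower. dpr7 was at 9.51, 9.47, 9.42 and 9.30 on the eye arrays and at the floor on all other 21 arrays. It was thus at least 5.71-fold higher in eye than in wild-type antennal discs (log2 2.51, SE 0.03, adjusted p = 1.3e-20). dpr18 read 9.94, 9.92, 9.65 and 9.44 on the eye arrays and 6.91 on every wild-type antennal, leg and wing array, at least 7.08-fold higher in eye than in antennal discs (log2 2.82, SE 0.17, adjusted p = 3.6e-10). No eye array of either gene overlapped another wild-type array. The groups at the floor had no spread but entered the shared estimate of it. This made the SEs and adjusted p-values of both genes smaller, as for other genes with such groups.

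beat-IIIc, a relative of the axon defasciculation gene beat-Ia, was above the floor everywhere but highest in the eye disc. Its signal was 10.21, 10.28, 10.36 and 10.19 on eye arrays, against 7.57, 7.78 and 7.63 on wild-type antennal arrays, a 6.06-fold difference (log2 2.60, SE 0.10, adjusted p = 5.9e-13). Another probe set for beat-IIIc showed a difference of 1.85 (adjusted p = 1.9e-13). dpr19 was at 8.83, 9.02, 8.97 and 8.44 on eye arrays and 7.29, 7.64 and 7.42 on wild-type antennal arrays, 2.58-fold higher in the eye disc (log2 1.37, SE 0.16, adjusted p = 8.2e-06). dpr5, named here because of its values, was at 7.51 to 7.60 on eye arrays, against 6.91, 6.91 and 6.98 on wild-type antennal arrays (log2 0.61, SE 0.03, adjusted p = 6e-12). The eye arrays lay above the antennal arrays without overlap for all 5 genes, which were already called, and no such share was taken over all probe sets. Without eye replicate 4 the count against antennal discs was again 5, though no share of all probe sets was taken for that fit. The differences were then 2.56 for dpr7, 2.92 for dpr18, 2.62 for beat-IIIc and 1.49 for dpr19.

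The same 4 eye arrays were also set against leg and wing discs. Against wild-type leg discs 11 of 51 members were called (16.3% of all probe sets), 5 higher (6.6% of all) and 6 lower (9.75%) in the eye disc. Against wild-type wing discs 17 were called (29.6%), 5 higher (9.5%) and 12 lower (20.1%). Without eye replicate 4 the counts were 14 against leg and 21 against wing discs, with no share of all probe sets taken for that fit. The 5 higher genes with all arrays were in both cases dpr5, dpr7, dpr18, dpr19 and beat-IIIc. dpr19 was at 7.87 to 8.15 on wild-type leg arrays, and its rise of 0.84 in the eye disc (adjusted p = 0.00126) was 0.70 with the phe signal as a covariate (adjusted p = 0.335). With that covariate the eye differences from leg discs stayed at 2.43 for dpr7, 2.56 for dpr18 and 1.96 for beat-IIIc. The 2 comparisons share their eye arrays, and centring each array on its median shifted eye against wing values by -0.16; the split of 5 higher and 12 lower became 7 and 7 after quantile normalization and 26 and 8 after centring, which called all 14 genes at the floor in the deposited values. Against leg discs it became 7 and 6, and 7 and 7.

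Neuron markers moved with these genes. Of 11 listed, 8 were measured, and 6 of them were higher in eye than in wild-type antennal discs. Their summed linear signal was 11039 to 12035 on eye arrays, against 2211 to 2483 on wild-type antennal and 2041 to 2185 on wild-type leg arrays. The markers cpx and onecut were at the floor in every group but the eye disc. The 7 measured photoreceptor markers summed to 10526 to 11863 on eye arrays, against 2385 to 2727 on wild-type antennal arrays, with 6 of 7 higher. Of the 8 salivary gland markers 3 were also higher in eye than in antennal discs (sums of 3888 to 17346, against 2636 to 2833), and of the 4 muscle precursor markers 1 was higher and 2 lower. Of the 7 glia markers 2 were higher and 0 lower (sums of 12170 to 13286, against 7777 to 8152). Their part in the eye disc levels of the 5 genes was not tested.

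**Figure D2:**
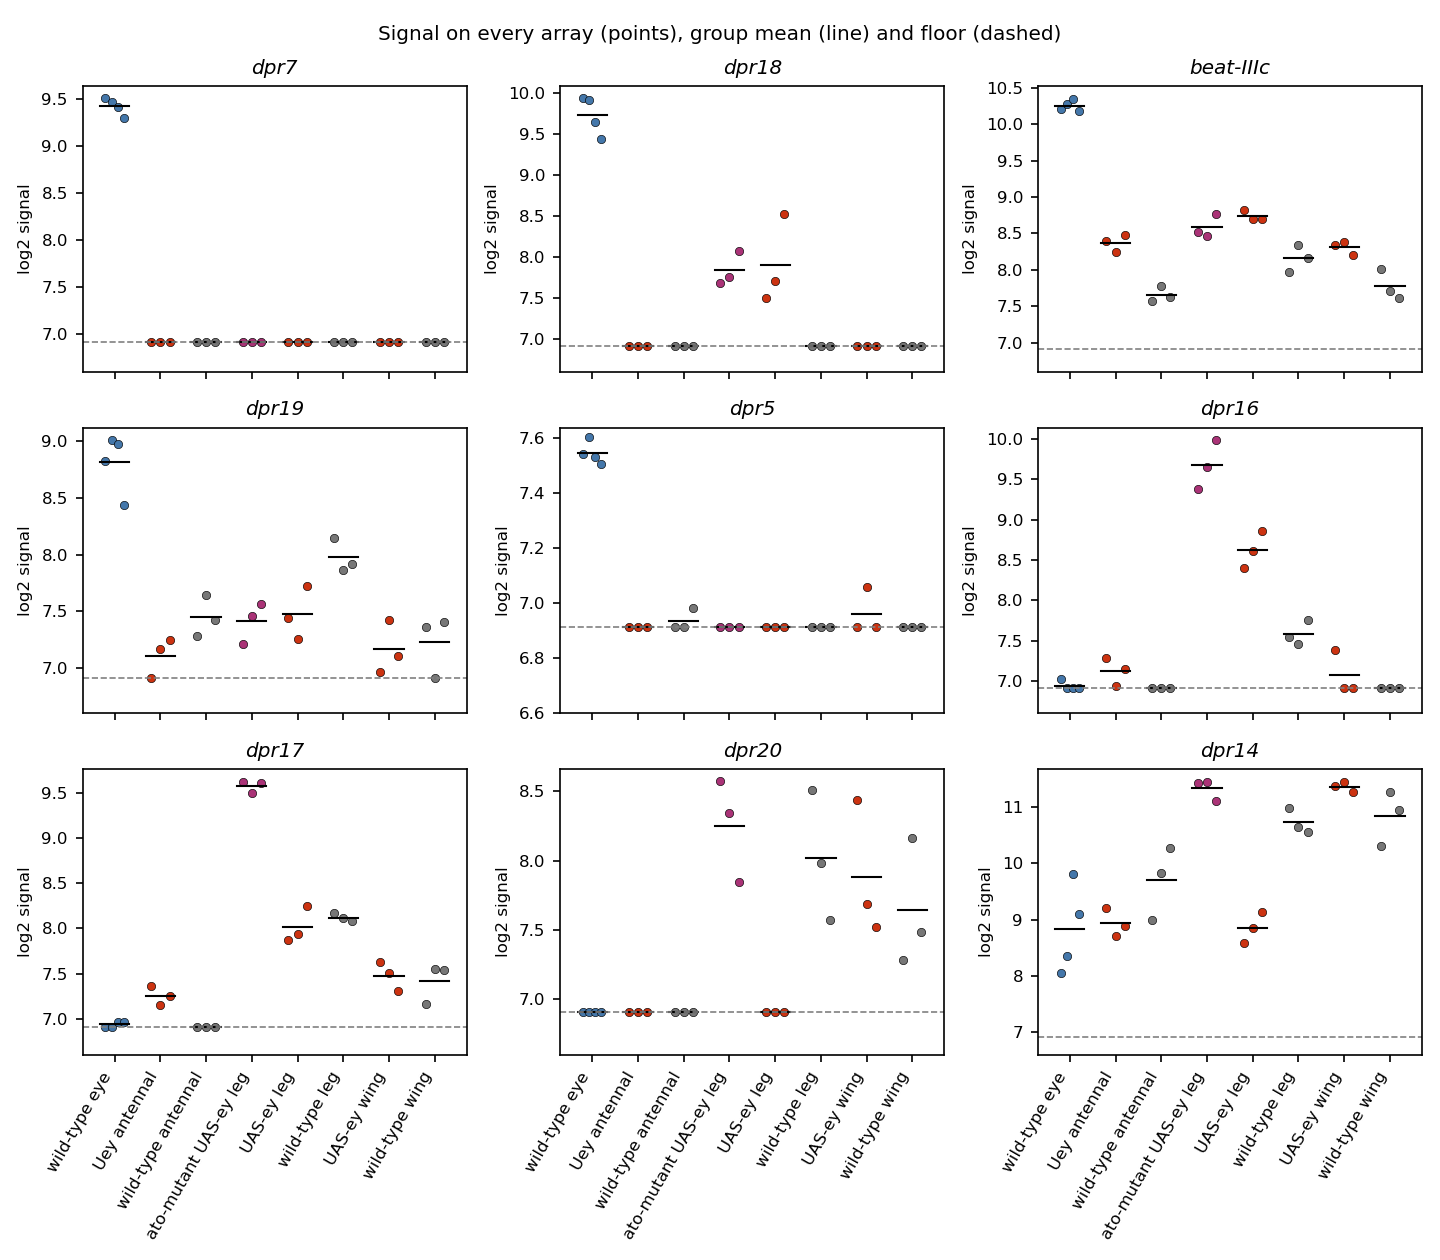
Log2 signal of 9 genes on every array (points), with the group mean (line) and the floor of 6.91 (dashed), by group. dpr7, dpr18, beat-IIIc, dpr19 and dpr5 are highest on the 4 eye arrays, dpr16 and dpr17 on the 3 ato-mutant UAS-ey leg arrays, and dpr20 and dpr14 are higher on leg and wing arrays other than UAS-ey leg than on the rest.

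All 3 discs with ectopic ey had more beat-IIIc signal than their wild-type counterparts. In leg discs its signal was 8.82, 8.70 and 8.70 with UAS-ey, against 7.97, 8.34 and 8.17 in wild type (log2 0.59, SE 0.11, adjusted p = 8e-04). In wing discs it was 8.34, 8.39 and 8.21 with UAS-ey, against 8.02, 7.70 and 7.62 in wild type (log2 0.53, SE 0.11, adjusted p = 0.0052). In antennal discs it was 8.39, 8.25 and 8.47 with Uey, against 7.57, 7.78 and 7.63 in wild type (log2 0.71, SE 0.11, adjusted p = 1.6e-04). The arrays did not overlap in any disc, and all levels with ectopic ey stayed below the lowest eye array at 10.19.

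The other beat-IIIc probe set gave changes of 0.58 in leg, 0.26 in wing and 0.57 in antennal discs (adjusted p = 1.7e-05, 0.043 and 2.1e-05). With the phe signal as a covariate the changes were 0.43 in leg (adjusted p = 0.307), 0.58 in wing (adjusted p = 0.00802) and 0.66 in antennal discs (adjusted p = 0.00124). Fitted on the wing arrays alone, the wing change of beat-IIIc was not called (adjusted p = 0.244). Of the 8 neuron markers, 2 were higher in UAS-ey leg discs (Appl by 3.12 and Ank2 by 1.85; list median 0.15), 2 in UAS-ey wing discs (Appl and Ank2; 0.11) and 3 in Uey antennal discs (Appl, Ank2 and elav; 0.03), while cpx and onecut stayed at the floor. Their sums were 3815 to 4358 on UAS-ey leg arrays against 2041 to 2185 on wild-type leg arrays, 2890 to 3772 on UAS-ey wing arrays against 1958 to 2379 on wild-type wing arrays, and 3871 to 4458 on Uey antennal arrays against 2211 to 2483 on wild-type antennal arrays. Of the 7 photoreceptor markers, 4 were higher and 1 lower in UAS-ey leg discs, 3 higher in UAS-ey wing discs, and 3 higher and 1 lower in Uey antennal discs. Their sums overlapped in leg discs (3075 to 3741 with UAS-ey, 3104 to 4568 in wild type) and wing discs (4641 to 5698 with UAS-ey, 2667 to 4776 in wild type) but not in antennal discs (2889 to 2956 with Uey, 2385 to 2727 in wild type).

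RNA quality moved with ectopic ey as well. The 3' minus 5' log2 difference of the GAPDH control, a sign of RNA integrity, was 2.01 to 2.27 on UAS-ey leg arrays against 1.79 to 1.93 on wild-type leg arrays. It was 2.503 to 2.65 on UAS-ey wing arrays against 1.99 to 2.44 on wild-type wing arrays, and 2.19 to 2.40 on Uey antennal arrays against at most 2.16 on wild-type antennal arrays, without overlap in any disc. Of 3 tracheal markers measured, 2 were higher in UAS-ey leg, 2 in UAS-ey wing and 1 in Uey antennal discs, with 0 lower. Their sums with ectopic ey and in wild type were 11083 to 12390 and 7457 to 9105 in leg discs. They were 10708 to 10901 and 6621 to 8875 in wing discs, and 12686 to 12857 and 9922 to 10163 in antennal discs. Of 7 glia markers, 2 were higher and 3 lower in leg discs, 0 were called in wing discs and 2 were higher in antennal discs. The part of these markers and of RNA quality in the beat-IIIc change was not tested.

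In UAS-ey against wild-type leg discs, 7 of 51 members (13.7%) were called, beside 19.4% of all probe sets, with 3 higher (9.02% of all) and 4 lower (10.3%). The split became 5 and 4 under quantile normalization and under centring. Of 8 salivary gland markers 4 were lower in the same comparison (list median -0.90), with sums of 2471 to 3384 on UAS-ey leg arrays, against 10500 to 16863 on wild-type leg arrays; their part in the members' changes was not tested. Beside beat-IIIc, the genes that rose were dpr18 and dpr16. dpr18, one of the eye disc genes, was at 7.50, 7.70 and 8.52 on UAS-ey leg arrays and at the floor on all 3 wild-type leg arrays, at least 1.99-fold higher (log2 0.995, SE 0.18, adjusted p = 6.7e-04). It was at the floor on every UAS-ey wing, wild-type wing, Uey antennal and wild-type antennal array. Its highest UAS-ey leg array was still below the lowest eye array at 9.44.

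dpr16 was at 8.40, 8.61 and 8.86 in UAS-ey leg discs, against 7.54, 7.46 and 7.76 in wild-type leg discs, a 2.05-fold rise (log2 1.04, SE 0.15, adjusted p = 7.1e-05). The arrays did not overlap, and the eye arrays were at the floor for 3 of 4 and at 7.03 for the other. All UAS-ey leg arrays thus lay above all eye arrays. Its other probe set lay within 0.1 of the floor in every group mean and did not show the change (-0.01). With the phe signal as a covariate the dpr16 change was 0.96 (SE 0.26, adjusted p = 0.0588) and that of dpr18 0.72 (adjusted p = 0.306).

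In wing discs beat-IIIc was the single member called of 51 (1.96%), beside 5.32% of all probe sets (2.94% higher and 2.38% lower). dpr16 read 7.39, 6.91 and 6.91 with UAS-ey and the floor in wild type (log2 0.16, adjusted p = 0.783). Of the salivary gland markers 4 of 8 were lower in wing discs too (sums of 2559 to 3892 with UAS-ey, against 7859 to 26313 in wild type), and in antennal discs 3 of 4 muscle precursor markers were lower (867 to 898 with Uey, against 1302 to 1381 in wild type); their part was not tested. In antennal discs 2 members were called (3.92%), beside 11.5% of all probe sets (7.04% higher and 4.46% lower), and both were higher. The other gene was dpr17, at 7.36, 7.15 and 7.25 with Uey and at the floor on the 3 wild-type arrays, at least 1.27-fold higher (log2 0.34, SE 0.10, adjusted p = 0.0334). That call held in 1 of 6 fits that left out an array, the one without Uey replicate 2; without Uey replicates 1 and 3 and wild-type replicates 1, 2 and 3 the adjusted p was 0.149, 0.087, 0.0829, 0.0861 and 0.09.

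**Figure D3:**
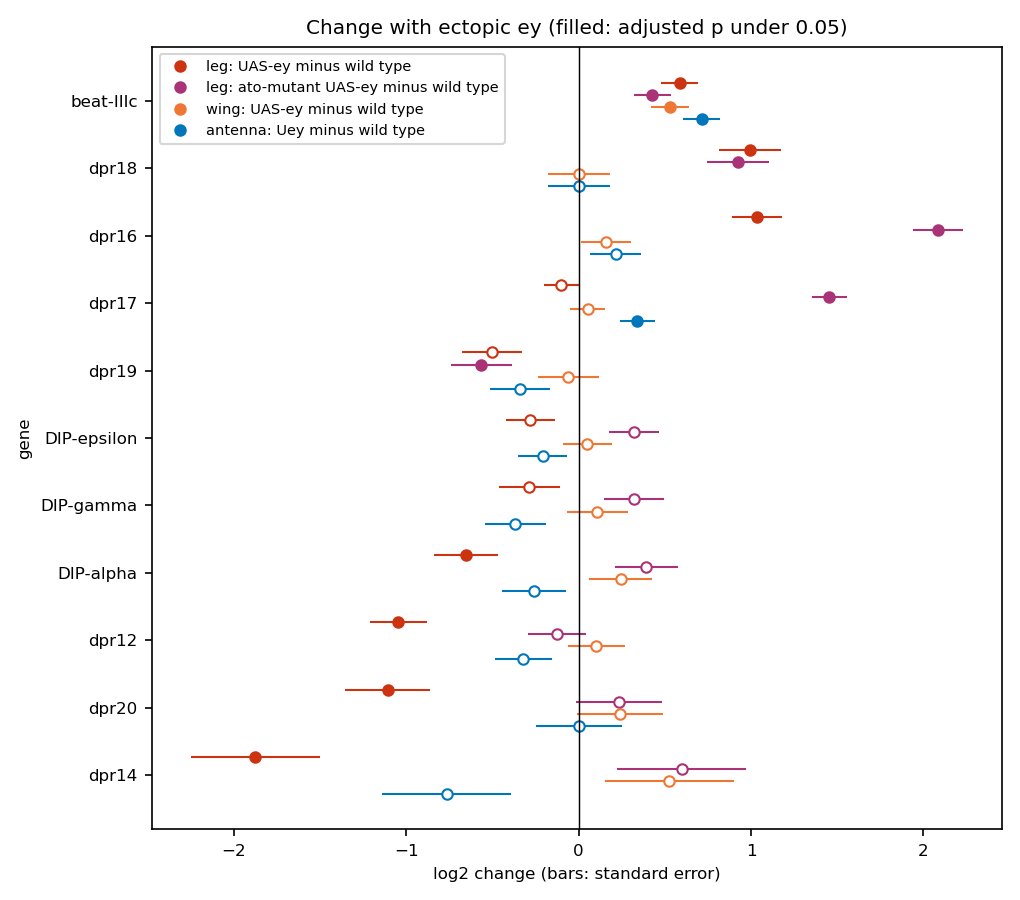
Log2 change (points, with standard errors as bars) of 11 members in 4 comparisons of ectopic ey, filled where the adjusted p was under 0.05. beat-IIIc is filled on the right in all 4 comparisons, dpr18 and dpr16 in both leg comparisons, and dpr14, dpr20, dpr12 and DIP-alpha are filled on the left only for UAS-ey against wild-type leg discs. Points at 0 for dpr18 in wing and antennal discs and for dpr20 in antennal discs are genes at the floor in both groups, with no measured change.

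Whether the ey changes differed between discs was tested within the same limma fit. Between leg and wing discs 5 members differed (4.69% of all probe sets), 2 with a higher (1.78% of all) and 3 with a lower change (2.91%) in leg discs. The higher ones, dpr16 and dpr18, rest on values held at the floor: no wing array had dpr18 above it and 1 of 6 had dpr16 above it, so their wing changes were not measured and no size of a difference can be given. The fit on the floored values gave an adjusted p of 0.0182 for dpr16 and 0.0302 for dpr18. dpr20 was at the floor in UAS-ey leg discs, which makes its leg change a bound. The 3 lower ones were dpr14 by -2.40 (adjusted p = 0.0123), dpr20 by -1.35 (adjusted p = 0.034) and dpr12 by -1.15 (adjusted p = 0.00799). The split became 4 and 3 after quantile normalization and 4 and 4 after centring. Between leg and antennal discs, 2 members differed (2.21%, or 0.863% higher and 1.34% lower), dpr16 (adjusted p = 0.0427) and dpr18 (adjusted p = 0.0485), again without a measured size, since no antennal array had dpr18 above the floor and wild-type antennal arrays did not have dpr16 above it.

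The leg against wing differences of dpr14 and dpr12 held in all 12 fits without an array, those of dpr16, dpr18 and dpr20 in 9, 8 and 4. The dpr16 call was lost without UAS-ey wing replicate 2 or wild-type leg replicate 1 or 2 (adjusted p 0.0501 to 0.0539), and the dpr18 call without any of these or wild-type wing replicate 3 (adjusted p 0.0599 to 0.0668). The dpr20 call was kept only without UAS-ey wing replicate 2 or 3, wild-type leg replicate 3 or wild-type wing replicate 2, and was otherwise at an adjusted p of 0.0598 to 0.103. Against antennal discs the dpr16 call held in 3 of 12 such fits, those without Uey antennal replicate 1, UAS-ey leg replicate 1 or wild-type leg replicate 3 (adjusted p 0.0865 to 0.128 in the others). The dpr18 call held in 2, those without UAS-ey leg replicate 1 or 3 (adjusted p 0.0511 to 0.105 in the others). Between wing and antennal discs limma called 0 members (0.943% of all probe sets, or 0.192% higher and 0.751% lower), and 1 at an unadjusted p under 0.05.

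The levels of dpr16 and dpr17 were highest on the ato-mutant UAS-ey leg arrays. dpr16 was at 9.38, 9.65 and 9.99 in ato-mutant UAS-ey leg discs, against 8.40, 8.61 and 8.86 in UAS-ey leg discs (log2 1.05, SE 0.15, adjusted p = 4.4e-05) and 7.54, 7.46 and 7.76 in wild-type leg discs (log2 2.09, SE 0.15, adjusted p = 8.7e-09). dpr17 was at 9.62, 9.49 and 9.60 in ato-mutant UAS-ey leg discs, against 7.87, 7.94 and 8.25 in UAS-ey leg discs (log2 1.55, SE 0.10, adjusted p = 5.4e-09). In wild-type leg discs it was at 8.17, 8.11 and 8.08, 2.74-fold lower than in ato-mutant discs (log2 1.45, SE 0.10, adjusted p = 8.4e-09). For dpr16 the 3 leg genotypes formed 3 separate ranges, while for dpr17 the UAS-ey and wild-type leg arrays overlapped (log2 -0.10, adjusted p = 0.654).

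Both changes against wild type lie on the same side of the phe split, and with phe as a covariate they were 2.10 for dpr16 and 1.41 for dpr17. Against UAS-ey leg discs they were 1.15 (adjusted p = 0.0616) and 1.22 (adjusted p = 0.00105). The other dpr16 probe set, near the floor, was called in neither comparison (-0.01 and 0.00).

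Markers of other tissues were also high on these arrays. All 6 haemocyte markers were higher in ato-mutant UAS-ey leg discs than in UAS-ey and in wild-type leg discs, and summed to 9737, 2472 and 8983 on ato-mutant replicates 1, 2 and 3, against 948 to 1115 on UAS-ey leg and 1036 to 1564 on wild-type leg arrays. The 3 fat body markers measured, of 6 listed, summed to 26189 to 34919 on ato-mutant arrays, against 1869 to 9086 on UAS-ey leg arrays and 3757 to 6702 on wild-type leg arrays, and 1 of the 3 was called in each comparison. Of the 8 salivary gland markers, 6 were higher than in UAS-ey leg discs (list median 1.94), and 3 were higher and 1 lower than in wild-type leg discs. Their sums were 9065 to 28325 on ato-mutant arrays, against 2471 to 3384 on UAS-ey leg and 10500 to 16863 on wild-type leg arrays. Of the 8 neuron markers 2 were lower and 0 higher than in UAS-ey leg discs (sums of 2179 to 2856, against 3815 to 4358). Of the 7 photoreceptor markers 5 were lower and 2 higher (list median -0.81), though their sums were 4123 to 4922, against 3075 to 3741. Against wild-type leg discs 1 neuron marker was higher and 1 photoreceptor marker lower. The photoreceptor marker gl was at the floor on ato-mutant and wild-type leg arrays, with a mean of 10.04 in UAS-ey leg discs. The GAPDH difference was 2.76 to 3.29 on ato-mutant arrays, against 2.01 to 2.27 on UAS-ey leg and 1.79 to 1.93 on wild-type leg arrays. The part of these markers and of RNA quality in the changes was not tested.

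dpr18 was at 7.68, 7.76 and 8.07 in ato-mutant UAS-ey leg discs, against 7.50, 7.70 and 8.52 in UAS-ey leg discs, a difference within the spread (log2 -0.07, SE 0.18, adjusted p = 1). It was at least 1.90-fold above the floor of wild-type leg discs in the mutant (log2 0.92, adjusted p = 0.00105). beat-IIIc was at 8.52, 8.46 and 8.77 in the mutant and kept a rise of 0.43 over wild-type leg discs (adjusted p = 0.00775). Against UAS-ey leg discs its difference was -0.16 (adjusted p = 0.342). Its other probe set was called lower in the mutant than in UAS-ey leg discs (-0.25, adjusted p = 0.0177). dpr19 was at 7.21, 7.46 and 7.57 in the mutant, against 8.15, 7.87 and 7.92 in wild-type leg discs (log2 -0.57, adjusted p = 0.0278). beat-VI was at 7.47, 7.31 and 7.32 in the mutant, against 7.73, 7.93 and 7.94 in wild-type leg discs (log2 -0.50, adjusted p = 0.0205). Neither gene's arrays overlapped, nor did those of beat-Vb, at 7.16, 6.92 and 6.91 in the mutant against 7.35, 7.43 and 7.18 in wild type (log2 -0.32, adjusted p = 0.0437). These calls were lost in 3 to 4 of the 6 fits without an array. For dpr19 these were the fits without ato-mutant replicate 1 or 2 or wild-type replicate 1 (adjusted p 0.0537 to 0.115). For beat-VI they left out ato-mutant replicate 2 or 3 or wild-type replicate 2 or 3 (0.0548 to 0.0765), and for beat-Vb ato-mutant replicate 2 or 3 or wild-type replicate 1 or 2 (0.102 to 0.179).

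In all, 7 members (13.7%) were called between ato-mutant and wild-type leg discs, 4 higher and 3 lower, beside 21.1% of all probe sets (12.3% higher and 8.87% lower). The split became 3 and 5 under quantile normalization and under centring. Between ato-mutant UAS-ey and UAS-ey leg discs, 14 members (27.5%) were called, 11 higher and 3 lower, beside 23.5% of all probe sets (14.5% higher and 9.03% lower). That split did not hold under other scalings: it was 8 and 11 after quantile normalization and 9 and 12 after centring, which shifted this comparison by 0.13. The 3 genes called lower on the deposited scale were beat-VI (-0.50), dpr4 (-0.32) and side-II (-0.28), of which dpr4 and side-II were named after their values were seen. Besides dpr16, dpr17 and the genes described next, the higher genes were DIP-eta (0.51), dpr9 (0.46) and side-VII, the first pair named after their values were seen. side-VII was at 9.34, 8.96 and 8.94 in the mutant, against 8.74, 8.81 and 8.66 in UAS-ey leg discs (log2 0.34, adjusted p = 0.0138), a call lost without ato-mutant replicate 1 or UAS-ey replicate 3 (adjusted p 0.0852 and 0.0518). The beat-VI call was lost without ato-mutant replicate 2 or UAS-ey leg replicate 1 or 2 (adjusted p 0.0541 to 0.0878).

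A further set of members followed the phe control across the whole series. DIP-alpha, dpr12, dpr14 and dpr20 were each higher on all 12 arrays with high phe than on any of the 13 arrays with low phe, as were 2.82% of all probe sets. No member had the opposite order, which 0.107% of all probe sets showed. dpr14 was at 8.58, 8.86 and 9.14 in UAS-ey leg discs, against 10.99, 10.65 and 10.56 in wild-type leg discs (log2 -1.88, SE 0.37, adjusted p = 0.00151). On the same arrays phe read 8.37, 8.51 and 8.65, against 10.89, 10.37 and 10.41. Within the 4 eye arrays dpr14 was at 8.06, 8.35, 9.81 and 9.10 where phe was at 7.89, 8.10, 9.49 and 8.96, so that both signals had the same order.

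dpr20 was at the floor on all 13 low-phe arrays and at 7.29 to 8.58 on the 12 others. In UAS-ey leg discs it was at least 2.16-fold lower than in wild-type leg discs, which read 8.51, 7.98 and 7.57 (log2 -1.11, SE 0.25, adjusted p = 0.00371). dpr12, whose protein binds DIP-delta, was at 8.10, 8.11 and 8.25 in UAS-ey leg discs, against 9.18, 9.23 and 9.19 in wild-type leg discs (log2 -1.05, SE 0.17, adjusted p = 2.2e-04). Its other probe sets did not show that fall (0.17 and -0.09). DIP-alpha, the partner of Dpr6 and Dpr10, was at 7.49, 7.42 and 7.51 in UAS-ey leg discs, against 8.17, 8.13 and 8.08 in wild-type leg discs (log2 -0.65, SE 0.18, adjusted p = 0.0169). Its call was lost without UAS-ey leg replicate 2 (adjusted p = 0.055) or wild-type leg replicate 1 (adjusted p = 0.0547) or 2 (adjusted p = 0.0502).

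With phe as a covariate the leg changes of these 4 genes were 0.25 for dpr14, -0.48 for dpr20, -0.20 for dpr12 and 0.11 for DIP-alpha, with adjusted p-values of 0.718 to 1. In that fit limma called 0 of 51 members between UAS-ey and wild-type leg discs, and 3 at an unadjusted p under 0.05. The share of all probe sets called in that fit was not taken, so this count is no result about the members. Between ato-mutant UAS-ey and UAS-ey leg discs, dpr14 rose by 2.47 (SE 0.37, adjusted p = 1e-04), dpr20 by 1.34, DIP-alpha by 1.05 and dpr12 by 0.92. With the covariate these values were -0.02, 0.60, 0.15 and -0.08, and dpr17 was the 1 member still called, again without a share of all probe sets. Another dpr12 probe set was called lower in this comparison without the covariate (-0.48, adjusted p = 0.00314). Genotype and phe level cannot be told apart in UAS-ey leg discs, since no wild-type leg array had a low and no UAS-ey leg array a high phe signal.

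DIP-gamma and DIP-epsilon moved in the same direction with smaller steps. DIP-gamma, a binding partner of Dpr11, was at 10.60, 10.41 and 9.85 in ato-mutant UAS-ey leg discs, against 9.95, 9.64 and 9.46 in UAS-ey leg discs (log2 0.61, SE 0.18, adjusted p = 0.0176), with overlapping arrays. Its call was lost without ato-mutant replicate 1 or 2 or UAS-ey leg replicate 2 or 3 (adjusted p 0.0589 to 0.0998). DIP-epsilon was at 8.75, 8.54 and 8.09, against 8.01, 7.70 and 7.86 (log2 0.60, SE 0.14, adjusted p = 0.0051), without overlap. Another DIP-epsilon probe set changed the opposite way (-0.68, adjusted p = 8.8e-04). With the phe covariate the values were -0.11 for DIP-gamma and 0.02 for DIP-epsilon.

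**Figure D4:**
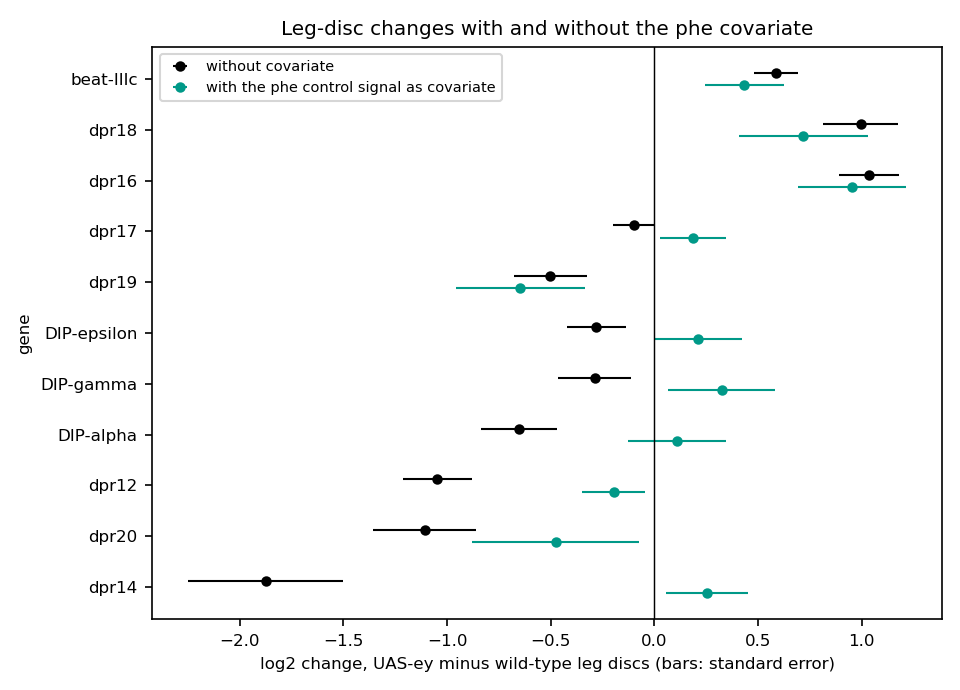
Log2 change between UAS-ey and wild-type leg discs (points, with standard errors as bars) of 11 members, without (black) and with (green) the phe control signal as a covariate. The falls of dpr14, dpr20, dpr12 and DIP-alpha lie nearer to 0 or above it with the covariate, while dpr16 moves little, with values of 1.04 and 0.96.

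Among wild-type discs other than the eye, dpr17 and dpr16 were highest in the leg disc. dpr17 was at 8.17, 8.11 and 8.08 in leg discs, against 7.17, 7.55 and 7.54 in wing discs (log2 0.70, SE 0.10, adjusted p = 2.6e-04). dpr16 was at the floor on all 3 wild-type wing arrays and at least 1.59-fold higher in leg discs (log2 0.67, SE 0.15, adjusted p = 0.0111). dpr19, at 8.15, 7.87 and 7.92 in leg discs against 7.36, 6.91 and 7.40 in wing discs, was also higher in leg discs (log2 0.75, adjusted p = 0.0191). Its call was lost without wild-type leg replicate 1 (adjusted p = 0.0988) or wild-type wing replicate 2 (adjusted p = 0.134). These 3 genes were the members called between leg and wing discs, beside 5.12% of all probe sets (2.24% higher and 2.88% lower), and both groups had high phe.

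Between wild-type antennal and leg discs 5 members were called (5.89%, or 2.43% higher and 3.46% lower), all lower in antennal discs. dpr17 and dpr16 were at the floor on the 3 antennal arrays, so that antennal discs were at least 2.31-fold and 1.59-fold lower than leg discs (adjusted p = 3e-07 and 0.00953). With the phe covariate the dpr17 difference was -1.003 (adjusted p = 2.4e-04) and that of dpr16 -0.73 (adjusted p = 0.14). The others were dpr20 (-1.11), dpr12 (-0.78) and beat-IIIc (-0.50). The dpr20 call was lost without wild-type leg replicate 1 (adjusted p = 0.0816), the dpr12 call without wild-type antennal replicate 1 (adjusted p = 0.0533), and the beat-IIIc call without that array or wild-type leg replicate 2 (adjusted p = 0.0617 and 0.0708). After either change of scaling the split was 2 higher and 5 lower. In the same comparison 3 of 4 muscle precursor markers (list median -1.09), 4 of 8 salivary gland markers (-1.04) and 1 of 3 fat body markers (-2.33) were lower in antennal discs. Their part in these calls was not tested.

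Between wild-type antennal and wing discs 6 members were called (12.9%, or 3.36% higher and 9.58% lower), again all lower in antennal discs. dpr17 was at least 1.42-fold lower (log2 -0.51, adjusted p = 0.00362), and DIP-alpha (-0.72), DIP-gamma (-0.71) and dpr12 (-0.59) were among the others. DIP-delta (-0.34) and beat-VII (-0.29) were named after their values were seen. The calls of DIP-alpha, DIP-gamma and dpr12 were lost without wild-type antennal replicate 1 or wild-type wing replicate 2 or 3, and those of DIP-gamma and dpr12 also without wild-type antennal replicate 2 (adjusted p 0.0521 to 0.133). With the phe covariate limma called 0 of 51 members here, and 2 at an unadjusted p under 0.05. No share of all probe sets was taken for that fit. The split of calls became 2 higher and 4 lower after quantile normalization and 18 and 7 after centring, which shifted this comparison by -0.15 and called all 14 genes at the floor. Here 3 of 4 muscle precursor, 4 of 8 salivary gland and 3 of 3 fat body markers were lower in antennal discs, and their part was not tested.

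The genes called lower in eye than in leg or wing discs included the 4 that followed phe. Against wild-type leg discs they were dpr14 (-1.90), dpr17 (-1.18), dpr20 (-1.11), dpr12 (-1.02), DIP-alpha (-0.65) and dpr16 (-0.65). The DIP-alpha call was lost without wild-type leg replicate 1 (adjusted p = 0.0526). With the phe covariate the 5 members called against leg discs included dpr17, lower by 0.91 (adjusted p = 8.4e-04). Against wing discs the 12 lower genes were dpr14 (-2.01), DIP-alpha (-0.95), DIP-gamma (-0.83), dpr12 (-0.82), dpr20 (-0.73), DIP-epsilon (-0.56) and dpr17 (-0.48), and, with smaller differences, DIP-eta, side-V, side-III, DIP-delta and beat-VII (-0.37 to -0.22). With the phe covariate 5 members were called against wing discs, all higher in the eye disc. No share of all probe sets was taken for the covariate fit, so neither of its counts is a result about the members. Another DIP-epsilon probe set was called higher in eye than in wing discs (0.52, adjusted p = 0.00357). The dpr20 difference from wing discs (-0.73, adjusted p = 0.024) was -0.47 without wild-type wing replicate 2 (adjusted p = 0.186). All 4 muscle precursor markers were also lower in eye than in leg discs (list median -1.23) and than in wing discs (-0.94), as were 1 and 3 of 3 fat body markers and 1 of 8 salivary gland markers in each case. Their part was not tested.

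Genes of known binding partners were not always above the floor together. DIP-alpha was above the floor on every array, as was its partner gene dpr6, at 7.57 to 8.09, while dpr10, the gene of its other partner, was at the floor throughout. DIP-gamma was above the floor on every array; of its partner genes, dpr11 and dpr15 were on none, dpr16 on 14 and dpr17 on 20. dpr12 was above the floor on every array and DIP-delta on 20 of 25, at 7.47 or less. The pair side and beat-Ia was at the floor in all 8 groups.

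Neighbouring members differed in the arrays on which they were above the floor. In the RefSeq gene table (assembly Release 6 plus ISO1 MT), dpr4 and dpr5 are direct neighbours, yet dpr4 was at 7.67 to 8.29 over all arrays while dpr5 was off the floor on 6 arrays, 4 of them from eye discs. dpr17 and dpr15 are separated by 1 gene, CG4702. dpr15 was at the floor throughout, also in ato-mutant UAS-ey leg discs where dpr17 was at 9.49 to 9.62. DIP-eta and DIP-theta, on both sides of Cyp6a16, were above the floor on 25 and 2 arrays, and beat-Vc and beat-Va, on both sides of CG31345, on 1 and 0 arrays.

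Most remaining members varied little on the probe sets used. Apart from side, at the floor throughout, the side genes kept their group means within 0.48 of each other or less, and side-VI was above the floor on 8 arrays, at 7.12 or less. side-VII was at 8.66 to 9.34 over all arrays. Another side-VIII probe set, also above the floor on every array, varied more, with group means of 7.57 to 8.54. It was called lower in UAS-ey than in wild-type leg discs (-0.50, adjusted p = 0.00803), in eye than in wing discs (-0.65, adjusted p = 4.1e-04), in antennal than in wing discs (-0.72, adjusted p = 0.00133), and in eye and antennal than in leg discs (-0.49 and -0.55, adjusted p = 0.00603 and 0.0128). It was called higher in ato-mutant than in UAS-ey leg discs (0.50, adjusted p = 0.00689). All 6 comparisons cross the phe split. The side-VIII probe set used here was called in none of these. beat-IIIa was at 7.76 to 8.68 and beat-VII at 8.03 to 8.63. beat-IIa and beat-Vc were above the floor on 3 and 1 arrays, all from wing discs, at 7.35 or less. dpr3, dpr4, dpr6, dpr8, dpr9 and dpr13 were above the floor on every array with group means within 0.57 of each other. DIP-eta was at 7.09 to 7.97, while dpr2 and DIP-beta were above the floor on 15 and 14 arrays, at 7.26 and 7.36 or less, and DIP-theta on 2 eye arrays, at 7.08 or less.

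Other recognition genes served for comparison. Of 43 listed cell recognition genes outside these families, 36 had their own probe set. UAS-ey leg discs had 5 higher and 3 lower than wild type (9.02% and 10.3% of all probe sets; list median 0.00), UAS-ey wing discs 5 higher (2.94%; 0.03) and Uey antennal discs 6 higher (7.04%; 0.02). rst (roughest), an immunoglobulin gene that patterns the pupal eye lattice, rose by 0.51 in leg, 0.73 in wing and 0.79 in antennal discs. caps, a leucine-rich repeat gene that guides photoreceptor targeting, rose by 0.66, 0.69 and 0.53. The 3 lower ones in leg discs were fra (-0.61), wrapper (-0.42) and trn (-0.38). Against wild-type antennal discs, the eye disc had 10 of the 36 higher (5.43% of all probe sets) and 1, caps, lower (-0.42, against 5.18%). The higher ones included kirre (1.75), a relative of rst, hbs (1.65), whose protein binds Rst, and rst itself (1.19). Among the members 5 of 51 were higher there and the median change of those above the floor was 0.00.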

How the data were processed

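Total RNA of 25 disc samples was extracted with Trizol and amplified from 100 ng by the Affymetrix protocol of 2 cycles, with cRNA labelled by the Enzo BioArray kit, per the labels' protocols. The deposited values are on the log2 scale, 1 per probe set and array, with a floor at 6.91; how the authors summarised and scaled the probes is not given in the sources used here. The array medians were 7.54 to 7.86. Probe sets were named through the platform annotation, and all 51 members matched the RefSeq gene table. Of 18952 probe sets, 183 controls were left out.

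Group means of all 8 groups were fitted to the deposited log2 values with limma 3.58.1 in R 4.3.3 (17 residual and 0.45 prior degrees of freedom), and contrasts were adjusted by Benjamini-Hochberg over 18769 probe sets, with calls at an adjusted p under 0.05. Every p-value in the text is from this model or its alternatives. A fold against a group wholly at the floor is a lower bound and is written as "at least". The scripts were tested on simulated data. Genes given in full were side, beat-Ia and dpr1, the members called in a comparison of ectopic ey (at most 8), the called members with the widest range over wild-type discs (at most 8) and the member with the highest mean of each family; other genes were named after their values were seen. The members and the lists were chosen with earlier results of these data known. Alternatives were quantile normalization, median centring, a fit on the compared arrays, a phe covariate, a replicate block, an intensity trend, a filter on the floor, another probe set, a 2-fold minimum and leaving out each array.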

Additional observations from a re-analysis of the deposited data

Results flagged for a closer look

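In the wild-type eye group of 4 arrays, 1 array stood far from the other 3 for 4 of the 32 members tested (chance alone does so in about 1 of 20 groups of values without a floor). For 3 of them it was replicate 4, the array with a fat body marker sum of 9703 against 443 to 507 on the others. The gap to the nearest array, as a share of the group's range, was 0.902 for DIP-beta (7.34 on replicate 4, 6.91 to 6.95 on the others), 0.979 for dpr2 (7.26, against 6.91 to 6.92) and 0.875 for dpr6 (8.09, against 7.66 to 7.72). For dpr16 it was 1, with 7.03 on replicate 1 and the floor on the others. On the eye arrays dpr16, dpr2 and DIP-beta had 3, 2 and 1 values at the floor, so the chance rate does not hold for them. The ey change differed between leg and wing discs for 5 members by the test of the difference itself, with log2 values of -1.15 for dpr12, -2.40 for dpr14, 0.88 for dpr16, 0.995 for dpr18 and -1.35 for dpr20. Between leg and antennal discs it differed for dpr16 by 0.82 and for dpr18 by 0.995. The values of dpr16 and dpr18 rest on wing and antennal arrays at the floor (all of them for dpr18; 5 of 6 wing and the wild-type antennal arrays for dpr16), so they give no measured size of a difference. UAS-ey leg arrays had low and wild-type leg arrays high phe signals, and with phe as a covariate limma called 0 members in either difference, with 1 (leg and wing) and 2 (leg and antennal) at an unadjusted p under 0.05. No share of all probe sets was taken for that fit.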

How the results depend on the processing

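Of 71 calls of genes described in full, quantile normalization kept 68, centring 67, an intensity trend 71, dropping probe sets at the floor 71, fitting only the compared arrays 41, the phe covariate 27, another probe set 52 and a 2-fold minimum 32. With another probe set 4 calls were lost and 15 changed sign. The calls of dpr7, dpr14, dpr17, dpr18, dpr19, dpr20, DIP-alpha, DIP-gamma, beat-Vb and side-VII could not change there, since these genes had 1 probe set. The replicate numbers did not pair the samples (same-number correlations of -0.41 to 0.35, all 3 over 0.1 in 1 of 11 comparisons). A replicate block kept 68, leaving 1 member called in Uey against wild-type antennal discs and 0 (6 unadjusted) in the difference of ey changes between leg and antennal discs, and changed no other count of calls by over 1.5 times. Values near the floor limit what 3 arrays a group can show. Causes were not tested.

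The share of all probe sets called was taken for the main fit only, so the counts below are no result about the members. Counts of called members moved by over 1.5 times as follows. After centring they were 34 for eye against wing, 25 for antennal against wing, 8 for the leg and wing difference and 0 (8 unadjusted) for the leg and antennal difference. On the compared arrays alone they were 0 (5 unadjusted) for UAS-ey wing, 7 for ato-mutant against UAS-ey leg, 8 for eye against wing, 2 for antennal against leg, 0 (8 unadjusted) for antennal against wing, 0 (5 unadjusted) for leg against wing and 2 for the leg and wing difference. With the phe covariate they were 0 (3 unadjusted) for UAS-ey leg, 1 for ato-mutant against UAS-ey leg, 5 for eye against leg, 5 for eye against wing, 1 for antennal against leg, 0 (2 unadjusted) for antennal against wing, 0 (1 unadjusted) for the leg and wing and 0 (2 unadjusted) for the leg and antennal difference. With another probe set they were 2 for UAS-ey wing, 3 for the leg and wing and 1 for the leg and antennal difference. With a 2-fold minimum they were 4 for UAS-ey leg, 0 for UAS-ey wing, 0 for Uey antennal, 5 for ato-mutant against UAS-ey leg, 2 for ato-mutant against wild-type leg, 7 for eye against leg, 5 for eye against wing, 2 for antennal against leg, 0 for antennal against wing, 0 for leg against wing, 3 for the leg and wing and 0 for the leg and antennal difference.

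The direction of a call reversed with the phe covariate for dpr14 (0.25) and DIP-alpha (0.11) in UAS-ey leg discs, for dpr14 (-0.023), dpr12 (-0.076) and DIP-gamma (-0.11) in ato-mutant against UAS-ey leg discs, for dpr14 (0.12) and DIP-alpha (0.080) in eye against leg discs, and for dpr14 (0.41) in the leg and wing difference. With another probe set, dpr12 reversed in UAS-ey leg discs (0.17), ato-mutant against UAS-ey leg (-0.48), eye against leg (0.0096), antennal against leg (0.094) and antennal against wing discs (0.067) and in the leg and wing difference (0.42). dpr16 changed sign in UAS-ey leg discs (-0.010), ato-mutant against UAS-ey leg (-0.0010) and against wild-type leg discs (-0.011), eye against leg (0.042), leg against wing discs (-0.038) and the leg and antennal difference (-0.010). Its other probe set was above the floor on 6 arrays, so these values measure no reversal. DIP-epsilon reversed in ato-mutant against UAS-ey leg (-0.68) and eye against wing discs (0.52), and beat-VI in ato-mutant against UAS-ey leg discs (0.068). A reversal here is a change of sign alone, whether or not the other value was called. Calls in the opposite direction included dpr12 (adjusted p = 0.00314) and DIP-epsilon (adjusted p = 8.8e-04) in ato-mutant against UAS-ey leg discs. They also included DIP-epsilon in eye against wing discs (adjusted p = 0.00357).

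Leaving out 1 array at a time gave 6 to 8 calls for UAS-ey leg, 1 to 2 for UAS-ey wing (2 without UAS-ey wing replicate 3), 1 to 2 for Uey antennal (2 only without Uey replicate 2), 10 to 14 for ato-mutant against UAS-ey leg and 4 to 7 against wild-type leg discs (4 without ato-mutant replicate 2). It gave 5 to 6 for eye against antennal, 10 to 14 for eye against leg, 11 to 21 for eye against wing (11 without wild-type wing replicate 2), 3 to 6 for antennal against leg (3 without wild-type antennal replicate 1), 1 to 11 for antennal against wing and 2 to 8 for leg against wing discs. The 11 and the 8 came without wild-type wing replicate 1; antennal against wing had 1 or 2 calls without wild-type antennal replicate 1 or 2 or wild-type wing replicate 2 or 3. The leg and wing difference had 2 to 7 calls (2 without wild-type leg replicate 1 or 2, 3 without UAS-ey wing replicate 2 or wild-type wing replicate 3), the leg and antennal difference 0 to 2, and the wing and antennal difference 0 to 1 (1 without UAS-ey wing replicate 3).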
